A study of Mus musculus with 8 samples.

Results

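The genes described here are 10 carboxylesterases of the mouse liver, Ces1b, Ces1c, Ces1d, Ces1e, Ces1f, Ces1g, Ces2a, Ces2c, Ces2e and Ces3a, out of 49585 genes counted in 8 livers. They were chosen by name, and the family was selected on the read counts of 1 of its members, Ces1g, whose level differed between genotypes and between library series in earlier results of the same data. The values of Ces1g are therefore given as a description with no test, and the other 9 genes were tested. All 10 passed the filter on low counts, and none has a count of 0 in any liver. The 10 genes sit in a pair of clusters on chromosome 8 rather than in 1. In the mouse genome GRCm38, the 6 Ces1 members lie on the minus strand from 93056728 (Ces1b) to 93337308 (Ces1g), and Ces2a, Ces2c, Ces2e and Ces3a lie on the plus strand from 104734003 to 105058413.

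Bulk RNA of 8 livers was sequenced from male mice kept for 3 months, from day 21, on HFCD, a diet high in fat and deficient in choline. LP+/+ is the control group of 3 livers, which the labels give as Alb-Cre0, replicates 1 and 2 with Trp53fl/+ and replicate 3 with Trp53wm-R245W/+. The study's results instead define LP+/+ as p53+/+ mice that carry Alb-Cre, while its methods name Cre-negative or Alb-Cre littermates as controls. LPfl/+ (2 livers, Alb-CreTG, Trp53fl/+) loses 1 allele of the tumour suppressor gene Trp53, and LP245/+ (3 livers, Alb-CreTG, Trp53wm-R245W/+) switches 1 allele from wild type to the missense mutant p53R245W. The Cre is driven by the albumin promoter, so that hepatocytes and cholangiocytes are recombined and the other cells of the liver keep the unrecombined alleles. By the labels every LPfl/+ and LP245/+ liver carries Cre and no control does. Cre and the Trp53 lesion therefore cannot be told apart in the comparisons with LP+/+.

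Carboxylesterases are serine hydrolases, most of them held in the lumen of the endoplasmic reticulum, that split ester, thioester and amide bonds in drugs and in lipids. In hepatocytes some of them release fatty acids from stored triacylglycerol and feed the assembly of very low-density lipoprotein (VLDL), and others activate or clear prodrugs. Humans carry a single main gene of the Ces1 kind, and rodents carry a row of copies that arose by duplication, several of which respond to the nuclear receptors CAR and PXR.

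The promoters of the closest copies are alike. RefSeq promoter windows, from 250 bases before to 50 after the annotated start site on the GRCm38.p6 build, were found for 7 of the 10 genes, and were not matched for Ces1d, Ces1f and Ces3a. Those of Ces1b (chr8:93079891-93080190), Ces1c (chr8:93131234-93131533) and Ces1g (chr8:93337160-93337459), all on the minus strand, are shown because Ces1b and Ces1c are the closest pair of the family and differed in how much they varied between livers, and because Ces1g is the gene that drew attention to the family. Capitals mark the 8 bases TTATGTAA, the D box, a sequence bound by the PAR bZIP factors and related to that of C/EBP.
Ces1b: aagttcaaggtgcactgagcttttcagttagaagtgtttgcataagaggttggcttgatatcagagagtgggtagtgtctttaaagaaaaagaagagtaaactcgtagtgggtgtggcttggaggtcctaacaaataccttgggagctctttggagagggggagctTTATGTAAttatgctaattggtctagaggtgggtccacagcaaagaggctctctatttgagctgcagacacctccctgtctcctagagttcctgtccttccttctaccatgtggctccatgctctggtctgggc
Ces1c: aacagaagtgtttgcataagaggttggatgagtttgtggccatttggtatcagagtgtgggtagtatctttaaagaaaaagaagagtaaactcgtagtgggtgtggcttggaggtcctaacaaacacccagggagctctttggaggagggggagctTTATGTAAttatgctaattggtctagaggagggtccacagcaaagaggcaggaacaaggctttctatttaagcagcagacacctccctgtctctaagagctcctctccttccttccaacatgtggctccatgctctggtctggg
Ces1g: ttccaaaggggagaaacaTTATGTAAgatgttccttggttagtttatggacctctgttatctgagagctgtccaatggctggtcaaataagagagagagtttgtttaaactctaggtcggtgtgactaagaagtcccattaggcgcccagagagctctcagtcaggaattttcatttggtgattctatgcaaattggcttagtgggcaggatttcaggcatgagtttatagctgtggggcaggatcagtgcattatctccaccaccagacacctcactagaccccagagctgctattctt
The Ces1b and Ces1c windows had 253 identical bases over 300 aligned columns (84.3%), against 57.4% for Ces1c with Ces1g and 53.8% for Ces1b with Ces1g. Windows of Ces1 members aligned to those of Ces2 members had 45.7% to 50.6%, so the Ces1g pairs lay only somewhat above that level. The Ces1b window shown is that of the downstream of its 2 RefSeq start sites, and the window of the upstream one overlaps it. Outside the Ces1 genes the closest windows were those of Ces2a and Ces2c, at 65.8%.

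The D box was present in the windows of 4 of the 4 Ces1 members that have one, Ces1b, Ces1c, Ces1e and Ces1g, and in none of the windows of the 3 Ces2 members. It starts 94 bases before the RefSeq start site in Ces1c, 81 in Ces1e and 232 in Ces1g, and in Ces1b, which has 2 RefSeq start sites, 84 bases before the downstream one and 7 before the upstream one. Of the Ces1 genes outside the chosen set, Ces1a has a D box 198 bases before its start site, and the Ces1h window has none. Searched on both strands, the same 8 bases were found in 308 of 32851 mouse promoter windows of this length (0.938%). The sequence was picked after the windows had been read, and the 4 genes are related by descent, so the match is a description and says nothing of binding. Of the other sequences searched on both strands, TATAAA was found in the Ces1g window and in no other member (13.6% of all windows), CCAAT in Ces1b, Ces1c, Ces1g, Ces2a and Ces2c (37.4% of all windows), and the nuclear receptor motif AGGTCA in Ces2a only (16.3% of all windows).

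The livers held between 26304526 and 31370714 counts, and the 10 carboxylesterases took 0.629% ± 0.0236 of them in LP+/+ (SD, n = 3), against 0.635% ± 0.0307 for LPfl/+ (n = 2) and 0.593% ± 0.0266 for LP245/+ (n = 3). Trp53 itself had 202 to 258 normalized read counts (counts divided by the size factor of the library) in LP+/+, 127 to 178 in LPfl/+ and 193 to 316 in LP245/+. The library numbers in the labels form 2 consecutive ranges, here called library series. The first series holds LP+/+ replicates 2 and 3 and all 3 LP245/+ livers, the second holds both LPfl/+ livers and LP+/+ replicate 1, and the first principal component of all genes tested (31% of the variance) separates them. LP245/+ and LPfl/+ never occur in the same series, so that series and genotype cannot be told apart in that comparison. The 8 hepatocyte markers summed to 2859540 to 4164740 normalized read counts and the 5 cholangiocyte markers to 108 to 210 over the 8 livers. Alb alone had 2150500 to 3321180. Kupffer cell and macrophage markers summed to 7548 to 9127 in LP+/+, 7874 to 10657 in LPfl/+ and 6542 to 7956 in LP245/+. Endothelial cell markers summed to 7068 to 11421 and stellate cell markers to 11154 to 14104, and lymphocyte markers to 30.3 to 68.2. Of 5 pancreatic acinar markers, Prss2 and Ctrb1 were at 0 in all 8 livers, and the list summed to at most 14.5. Among the 5 markers of intestinal epithelium, an organ that also uses Ces2 genes, Fabp2 (2221 to 5092) made up nearly all of the sum, while Lct, Sis and Muc2 stayed at or below 2 normalized read counts in every liver.

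Per kilobase of the longest coding transcript and over all 8 livers, Ces1c was the most abundant of the 10, with 37264 ± 4614 normalized read counts per kb (SD, n = 8). Ces1c encodes a carboxylesterase that hepatocytes secrete into the plasma. Ces3a, a hydrolase of the endoplasmic reticulum that is abundant in mouse hepatocytes, followed with 25499 ± 2717 and Ces1d with 7248 ± 923 per kb. The lowest Ces1c liver (30951) lay above the highest Ces3a liver (29270), and the lowest Ces3a liver (20785) lay above the highest Ces1d liver (8771). Below these came Ces1f (6740 ± 943), Ces1b (3373 ± 1482), Ces1e (2555 ± 326), Ces2e (2469 ± 504), Ces2a (2150 ± 195), Ces1g (1590 ± 630) and Ces2c (422 ± 133 per kb), each of which overlapped its neighbour in the order. With the summed length of all exons in place of the transcript, Ces1e and Ces2e changed places. Some of these genes are alike enough for reads to fit more than 1 of them. Of the stretches of 76 bases (the read length) in the Ces2c transcript, 25.4% also occur in another gene, among them Ces2b and the pseudogene Ces2d-ps. The share was 17.8% for Ces3a (with Ces3b), 14.6% for Ces2a (with Gm7208), 6.45% for Ces1c, 4.34% for Ces1b, 1% for Ces1e, 0.305% for Ces2e and 0% for Ces1d, Ces1f and Ces1g, and counts in the shared stretches are uncertain.

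**Figure D1:**
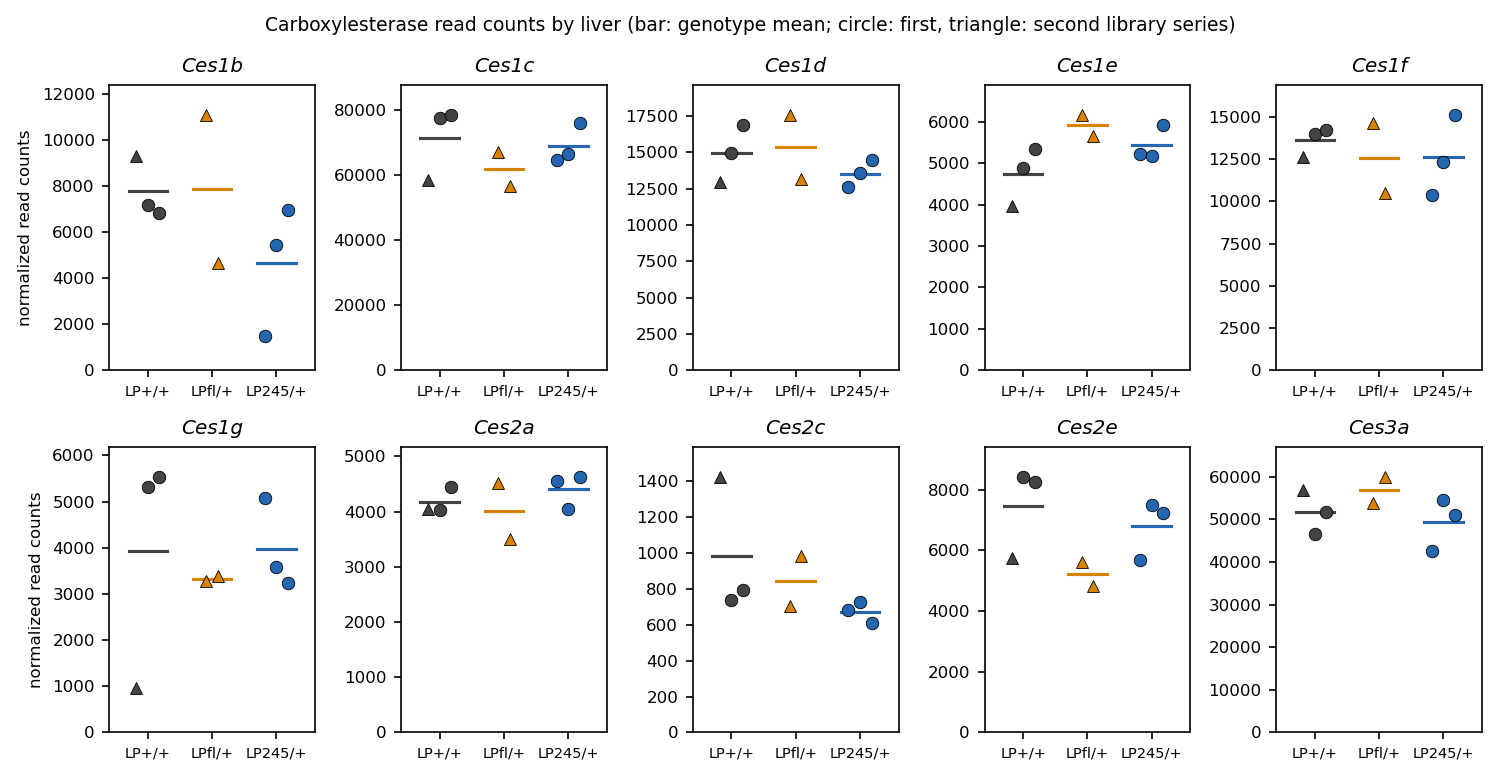
Normalized read counts of the 10 carboxylesterases (y axis, from 0) in each liver by genotype (x axis); bars are genotype means, circles the first and triangles the second library series. Ces1g sits at 956 in LP+/+ replicate 1 and between 3236 and 5526 in the other 7 livers, Ces1b sits at 1500 in LP245/+ replicate 1, and the genotypes overlap in most panels.

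The study sequenced these livers to learn what p53 alterations in hepatocytes do to transcription early on the diet, and the 3 genotypes are set against each other here in pairs. At the cutoff of the study (a log2 fold change of 1 or more in either direction with an adjusted p of 0.05 or less), 0 of the 9 carboxylesterases tested passed for LP245/+ against LP+/+, by edgeR's quasi-likelihood test and by DESeq2 alike, where edgeR called 0.00606% of the 16496 genes tested and DESeq2 0.0530% of those it adjusted. For LPfl/+ against LP+/+ the count was again 0 of 9 with both tools (all genes: 0% with edgeR and 0.0581% with DESeq2), and for LP245/+ against LPfl/+ 0 of 9 with both (all genes: 0% and 0.390%). At an unadjusted p below 0.05, edgeR marked 1 of the 9 genes tested in the first comparison (5.93% of all genes), 2 of 9 in the second (6.89%) and 0 of 9 in the third (8.51%). DESeq2 marked 1, 2 and 1, against 2.70%, 3.13% and 4.11% of the 30212 genes to which it gave a p. Those include genes with low counts that the edgeR filter left out, so the shares of the 2 tools are not alike. The genotypes did not overlap for 1, 2 and 1 of the 9, where 11.8%, 25.1% and 25.4% of all genes did not. The median log2 fold change of the 10 was -0.08, -0.08 and -0.06, against 0.00 for all genes tested in each comparison, with 3, 4 and 5 of the 10 higher in the genotype named first. Medians and directions of the 10 include Ces1g, on which the family was selected, and are a description. The first and second comparisons share the LP+/+ livers, and the third shares the others with them. In bulk tissue, fewer cells of a type and less RNA per cell cannot be told apart. In the same order of comparisons, 2, 1 and 8 of 8 hepatocyte markers were higher in the genotype named first. For Kupffer cell and macrophage markers it was 0, 5 and 1 of 6. With the library series as a covariate these were 4, 2 and 6 of 8, and 0, 6 and 0 of 6. By edgeR, 0, 1 and 1 hepatocyte and 0, 0 and 2 Kupffer markers had an unadjusted p below 0.05 (all genes: 5.93%, 6.89% and 8.51%).

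**Figure D2:**
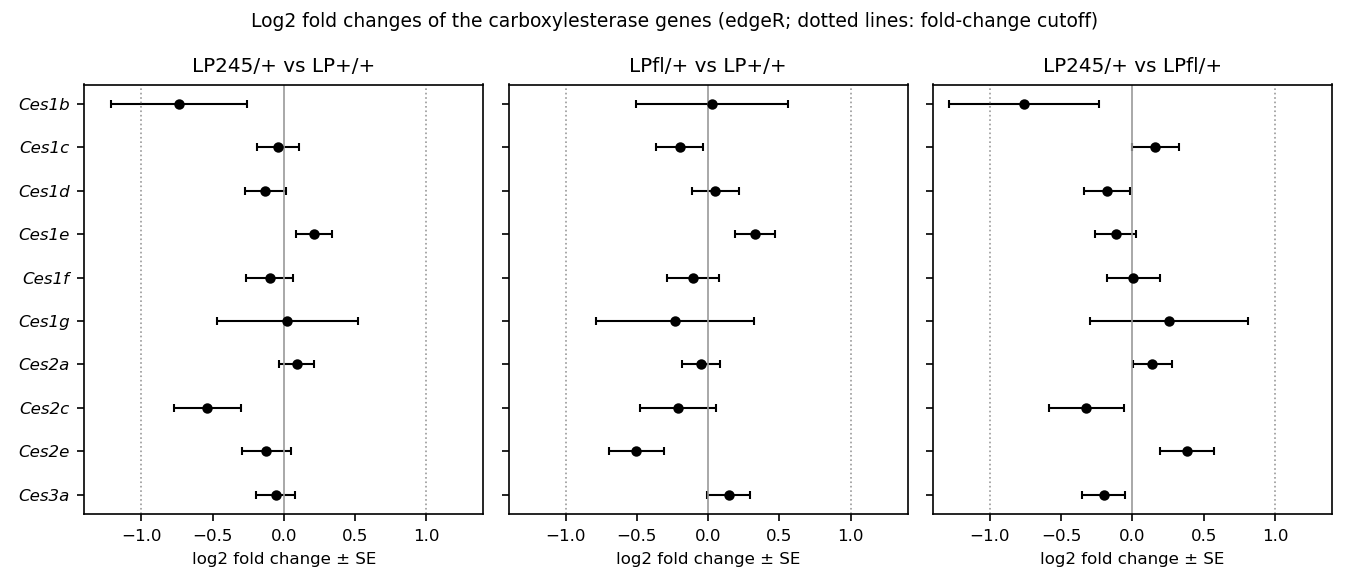
Log2 fold change (x axis) of each of the 10 carboxylesterases (y axis) in the 3 comparisons of genotypes; points are edgeR's estimates, bars their standard errors, and dotted lines mark a log2 fold change of 1 in either direction. All 30 points lie between -0.76 (Ces1b for LP245/+ against LPfl/+) and 0.38 (Ces2e in the same comparison), inside the dotted lines.

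Ces1g, a triacylglycerol and cholesteryl ester hydrolase whose loss in mice is known to raise liver and plasma lipids, had 956, 5328 and 5526 normalized read counts in LP+/+ replicates 1, 2 and 3. In LPfl/+ it had 3271 and 3389, and in LP245/+ 5075, 3590 and 3236. A single control liver was thus the lowest of the 8 and the other 2 controls were the highest, so the LP+/+ range spans both other genotypes. The means were 3936 ± 2583 for LP+/+ (SD, n = 3), 3330 ± 83.6 for LPfl/+ (n = 2) and 3967 ± 976 for LP245/+ (n = 3). The fitted log2 fold change was 0.02 (standard error 0.49) for LP245/+ against LP+/+, -0.23 (0.56) for LPfl/+ against LP+/+ and 0.26 (0.56) for LP245/+ against LPfl/+. Without LP+/+ replicate 1 the first became -0.44 and the second -0.69.

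Within the first library series, Ces1g was lower in LP245/+ than in LP+/+, with a log2 ratio of mean counts of -0.45. Within the second it was higher in LPfl/+ than in the only LP+/+ liver there, by 1.80, and LP+/+ itself was 2.51 higher in the first series than in the second. The second series thus holds the lowest Ces1g liver and 2 of the middle ones, and the first the 3 highest, LP+/+ replicates 2 and 3 and LP245/+ replicate 1. With the library series as a covariate, the fitted values were -0.44, 1.81 and -2.25 in the same order of comparisons. Since LP+/+ replicate 1 is the only control of the second series, the series and that liver cannot be told apart.

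Ces1g was read as a pattern over the 8 livers and set against 11627 genes outside the family with a mean of at least 50 normalized read counts. The 5 most like it were Plau (Pearson r = 0.97 and Spearman rho = 0.76 over 8 livers), Abcd2 (0.97 and 0.88), Churc1 (0.96 and 0.79), the small RNA gene Gm26397 (0.95 and 0.74) and Acot4 (0.95 and 0.86). Abcd2 encodes a peroxisomal transporter of very long-chain fatty acyl-CoA, Acot4 a peroxisomal acyl-CoA thioesterase and Plau urokinase, a secreted protease. Abcd2 had 322, 1753 and 1759 normalized read counts in LP+/+, against 1046 and 959 in LPfl/+ and 1249, 1302 and 1231 in LP245/+. Acot4 had 74.4, 194 and 200 in LP+/+, against 172 and 137 in LPfl/+ and 231, 193 and 163 in LP245/+. All 5 were lowest in LP+/+ replicate 1. Leaving out LP+/+ replicates 1 and 3, the livers farthest from the median of Ces1g, r over the remaining 6 livers was 0.97 for Plau, 0.73 for Abcd2, 0.69 for Churc1, 0.45 for Gm26397 and 0.73 for Acot4. These are descriptions over livers that share library series and genotype.

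**Figure D3:**
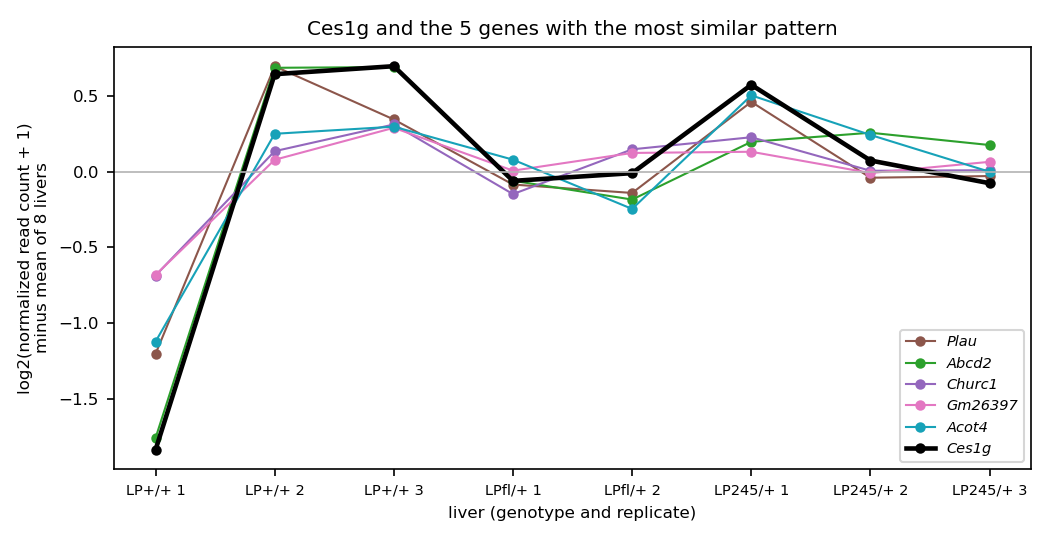
Log2 of the normalized read count plus 1, minus the mean of the 8 livers (y axis), for Ces1g (black) and the 5 genes most like it, in each liver (x axis). All 6 lines have their lowest point in LP+/+ replicate 1, and apart from it the livers lie within 1 log2 unit of their mean.

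The correlations of the other 9 carboxylesterases with Ces1g are given as a description. The genes named above were picked as the most like Ces1g of all those compared, so lower values in the 9 are no result. How r was spread over all the genes compared is not given. Among the 9, r over the 8 livers was highest for Ces1c (r = 0.59) and Ces1e (0.59) and lowest for Ces2c (-0.78). Without the same 2 livers it was 0.28, -0.83 and -0.09. Ces1d, the gene whose transcript is closest to Ces1g (77.0% identity), had r = 0.34.

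Ces1b varied most over the 8 livers, by 7.39-fold between the highest and the lowest, and Ces1g followed with 5.78-fold. Of 5877 genes with a mean of at least 500 normalized read counts, 0.493% spanned a larger fold than Ces1b, and the median was 1.34-fold. Ces1g was chosen because its level differed between livers, so its fold is not ranked. Ces1b had 9330, 7167 and 6827 normalized read counts in LP+/+, against 11093 and 4641 in LPfl/+ and 1500, 5457 and 6974 in LP245/+. Its highest liver was LPfl/+ replicate 1 and its lowest LP245/+ replicate 1, with the genotypes overlapping. The log2 fold change was -0.74 (standard error 0.48, adjusted p = 0.846) by edgeR for LP245/+ against LP+/+, -0.76 (0.53, adjusted p = 0.737) for LP245/+ against LPfl/+ and 0.03 (0.53, adjusted p = 0.994) for LPfl/+ against LP+/+. Without LP245/+ replicate 1 the first became -0.32 and the second -0.33, and without LPfl/+ replicate 1, the highest liver, the second was 0.0048 and the third -0.75. Within the first library series the log2 ratio of mean Ces1b counts, LP245/+ to LP+/+, was -0.59.

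Ces1c, whose promoter window and transcript (88.6% identity) are the closest to those of Ces1b, had 58477, 77482 and 78402 normalized read counts in LP+/+, against 67072 and 56579 in LPfl/+ and 64497, 66482 and 75959 in LP245/+. It spanned 1.39-fold, and neither the high Ces1b liver nor the low one was at an end of its range. The log2 fold change was -0.04 (95% confidence interval -0.37 to 0.29) for LP245/+ against LP+/+, -0.20 (-0.57 to 0.17) for LPfl/+ against LP+/+ and 0.16 (-0.21 to 0.53) for LP245/+ against LPfl/+. None passed the test, and the intervals leave out a change of 1 log2 unit in either direction.

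**Figure D4:**
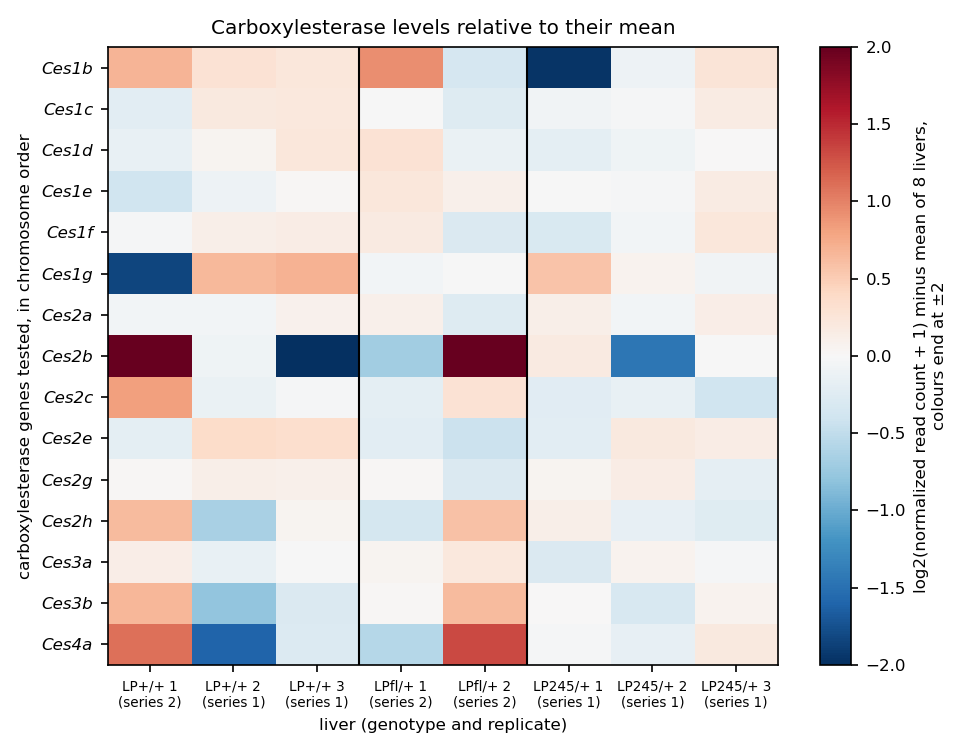
Log2 of the normalized read count plus 1 relative to the mean of the 8 livers (colour, ends at ±2) for the 15 carboxylesterases tested (rows, in chromosome order) in each liver (columns). Ces1b and Ces1g each have 1 liver far below the others, and Ces2b, Ces2c, Ces2h, Ces3a, Ces3b and Ces4a have their highest values in LP+/+ replicate 1 and LPfl/+ replicate 2.

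The hydrolases of stored lipid, Ces1d and Ces1f, overlapped between all genotypes. Ces1d, the triacylglycerol hydrolase known to mobilize stored lipid for VLDL, had 12964, 14939 and 16903 normalized read counts in LP+/+, against 17577 and 13173 in LPfl/+ and 12626, 13564 and 14458 in LP245/+. Its log2 fold change lay between -0.18 (LP245/+ compared with LPfl/+, 95% confidence interval -0.54 to 0.18) and 0.05 (LPfl/+ compared with LP+/+, -0.31 to 0.41). Ces1f, a related triacylglycerol hydrolase, ranged from 12647 to 14202 in LP+/+, from 10513 to 14636 in LPfl/+ and from 10401 to 15112 in LP245/+, with log2 fold changes from -0.11 to 0.01 and no adjusted p below 0.920 by edgeR. The uncharacterized transcript Gm45909 lies on the same strand inside Ces1d (93190328 to 93191358), and its reads cannot be told from unspliced Ces1d. It had 7.73, 119 and 64.0 normalized read counts in LP+/+, against 85.1 and 23.2 in LPfl/+ and 262, 140 and 137 in LP245/+, without overlap between LP245/+ and either other genotype (adjusted p = 0.831 against LP+/+ and 0.597 against LPfl/+ by edgeR). The log2 fold change against LPfl/+ was 1.73, and -1.81 with the library series as a covariate.

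Ces1e, known as egasyn, which holds beta-glucuronidase in the endoplasmic reticulum, had 3978, 4889 and 5351 normalized read counts in LP+/+, against 6164 and 5663 in LPfl/+ and 5222, 5187 and 5916 in LP245/+. Both LPfl/+ livers were above every control. The log2 fold change was 0.33 (standard error 0.14, unadjusted p = 0.0443 and adjusted p = 0.721 by edgeR) for LPfl/+ against LP+/+, 0.21 (0.13, adjusted p = 0.839) for LP245/+ against LP+/+ and -0.12 (0.14, adjusted p = 0.867) for LP245/+ against LPfl/+. Within the second library series, against the only LP+/+ liver there, LPfl/+ was higher by 0.57, and without that liver the fitted difference was 0.22.

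Ces2e, a hydrolase of the Ces2 group, which prefers substrates with a small acyl and a large alcohol part, had 5740, 8412 and 8265 normalized read counts in LP+/+, against 5634 and 4830 in LPfl/+ and 5670, 7511 and 7244 in LP245/+. The LPfl/+ livers were the lowest of all, and LP+/+ replicate 1 and LP245/+ replicate 1 came close to them. The log2 fold change was -0.51 (standard error 0.19, unadjusted p = 0.0263 and adjusted p = 0.704 by edgeR) for LPfl/+ against LP+/+, and 0.38 (0.19, unadjusted p = 0.0760 and adjusted p = 0.626) for LP245/+ against LPfl/+. It was -0.12 (0.17, adjusted p = 0.929) for LP245/+ against LP+/+. Within the second library series the log2 ratio of LPfl/+ to LP+/+ was -0.13, and in LP+/+ the first series was higher than the second by 0.54. With the library series as a covariate the value for LP245/+ against LPfl/+ turned to -0.16.

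Ces2c, an acylglycerol hydrolase of liver and intestine, had 1422, 736 and 793 normalized read counts in LP+/+, against 705 and 982 in LPfl/+ and 683, 724 and 611 in LP245/+. LP+/+ replicate 1 stood above the rest, and the 3 LP245/+ livers were below every control. The log2 fold change was -0.54 (standard error 0.24, unadjusted p = 0.0478 and adjusted p = 0.831 by edgeR) for LP245/+ against LP+/+, and it was -0.17 without LP+/+ replicate 1 and -0.18 within the first library series. It was -0.21 (0.26, adjusted p = 0.890) for LPfl/+ against LP+/+, which turned to 0.15 without that liver and was -0.75 within the second library series, where that liver is the only control. For LP245/+ against LPfl/+ it was -0.32 (0.26, adjusted p = 0.780), -0.061 without LPfl/+ replicate 2 and 0.57 with the library series as a covariate.

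Ces2a, an acylglycerol hydrolase and a known PXR target, was the steadiest of the 10, with 4046, 4022 and 4438 normalized read counts in LP+/+, against 4510 and 3498 in LPfl/+ and 4545, 4041 and 4619 in LP245/+. It spanned 1.32-fold, and its log2 fold changes were 0.09, -0.05 and 0.14 in the 3 comparisons, with standard errors of 0.12, 0.14 and 0.14. Ces3a had 56978, 46647 and 51739 in LP+/+, against 53937 and 59886 in LPfl/+ and 42526, 54550 and 51106 in LP245/+, with the genotypes overlapping and log2 fold changes of -0.06, 0.14 and -0.20 (standard errors 0.14, 0.15 and 0.15). The confidence intervals of both genes leave out a change of 1 log2 unit in every comparison.

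In the Ces2, Ces3 and Ces4a cluster, LP+/+ replicate 1 and LPfl/+ replicate 2 were the 2 highest livers for 6 of the 9 genes tested, Ces2b, Ces2c, Ces2h, Ces3a, Ces3b and Ces4a, a pattern chosen after the values were seen. Over all genes tested the same 2 livers were highest for 6.09%, and in the Ces1 cluster for 0 of 6 genes. Ces3b, the neighbour of Ces3a, had 15566, 5698 and 8020 normalized read counts in LP+/+, against 10054 and 15305 in LPfl/+ and 9880, 7896 and 10308 in LP245/+. Ces4a was at 87.0 and 101 in these livers and between 12.5 and 45.8 in the other 6, and Ces2b at 53.1 and 41.4 against at most 8.27. Both livers belong to the second library series and to different genotypes, and LPfl/+ replicate 1, from the same series, did not share the pattern (10054 for Ces3b, 26.3 for Ces4a). Ces2a, Ces2e and Ces2g did not share it either, and Ces2g ranged from 959 to 1301. Since Ces2c shares stretches with Ces2b, and Ces3a with Ces3b, their counts are not independent. Of the 10 carboxylesterases outside the chosen 10, 5 were tested, with 0 past the cutoff and 0 at an unadjusted p below 0.05 by edgeR and by DESeq2 in each comparison. Ces1a, Ces1h and Ces2d-ps stayed at or below 6.20, and Ces2f and Ces5a were at 0 in all 8 livers, which at a floor of 3 counts means that they were not detectable at this depth.

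Flanking genes were examined to see whether the 2 chromosomal regions moved as a whole. Of the 3 nearest genes tested on each side of both clusters and the 3 inside them, 0 of 15 passed the cutoff in any comparison by edgeR. In at least 1 of the 3 comparisons, 2 of the 15 had an unadjusted p below 0.05 by edgeR. In the single comparisons, 5.93%, 6.89% and 8.51% of all genes did. The share of all genes in at least 1 of the 3 was not computed, so the 2 of 15 has no matching background. Car7, a carbonic anhydrase gene before the Ces2 cluster, was low in all livers (16.2 to 44.6 normalized read counts) and had a log2 fold change of -0.85 for LP245/+ against LP+/+ (adjusted p = 0.795) and -0.77 for LP245/+ against LPfl/+ (adjusted p = 0.579). D230025D16Rik, after the cluster, had 0.42 for LP245/+ against LPfl/+ (adjusted p = 0.424).

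Genes that act with the carboxylesterases were taken from lists. Of 15 other liver esterases and lipases, 0 passed the cutoff and 0 had an unadjusted p below 0.05 in any comparison by edgeR, with medians of 0.03, -0.07 and 0.11 against 0.00 for all genes tested. Of 8 genes of VLDL assembly, 0 passed the cutoff in any comparison. For LP245/+ against LPfl/+, 2 of the 8 (8.51% of all genes) had an unadjusted p below 0.05 by edgeR. These were the apolipoprotein gene Apoa4 (log2 fold change -1.60, adjusted p = 0.525) and Cideb, which loads lipid onto VLDL particles (0.32, adjusted p = 0.541). With the library series as a covariate they were 0.64 and 0.083. Apoa4 had 17518, 3833 and 3614 normalized read counts in LP+/+, against 12596 and 15788 in LPfl/+ and 2910, 5883 and 5270 in LP245/+, high in the 3 livers of the second library series and low in the 5 of the first.

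Of 13 receptors and factors linked to carboxylesterase transcription, 0 passed the cutoff. The oxidative stress factor Nfe2l2 had a log2 fold change of -0.32 (adjusted p = 0.831) for LP245/+ against LP+/+, and the aryl hydrocarbon receptor gene Ahr -0.72 (adjusted p = 0.700) for LPfl/+ against LP+/+. For LP245/+ against LPfl/+, 4 of the 13 (8.51% of all genes) had an unadjusted p below 0.05, Ahr (0.86, adjusted p = 0.428), Hnf4a (0.39, 0.509), Ppara (0.39, 0.525) and Rxra (0.31, 0.538). With the library series as a covariate these became 0.10, 0.096, -0.011 and 0.30. Of 15 target genes of CAR and PXR, the receptors that induce several carboxylesterases, 0 passed the cutoff, while all 15 had a lower level in LPfl/+ than in LP+/+ (median log2 fold change -0.59) and all 15 a higher one in LP245/+ than in LPfl/+ (0.59), with 5 and 4 at an unadjusted p below 0.05 (6.89% and 8.51% of all genes). With the library series as a covariate 13 of the 15 turned to higher in LPfl/+ than in LP+/+ (median 0.48) and 13 to lower in LP245/+ than in LPfl/+ (median -0.84), so the direction of this list rests on how the series are treated. For LP245/+ against LP+/+ the median was -0.09 and 1 of the 15, Gstm3, had an unadjusted p below 0.05 (-0.67, adjusted p = 0.795). Por, the electron donor of cytochrome P450 enzymes, had 1667, 4120 and 3545 normalized read counts in LP+/+, against 1842 and 1491 in LPfl/+ and 4784, 3676 and 3522 in LP245/+. Its log2 fold change was -0.89 (adjusted p = 0.697) for LPfl/+ against LP+/+ and 1.26 (adjusted p = 0.362) for LP245/+ against LPfl/+, and 0.0079 and 0.064 with the library series as a covariate. The low livers for Por were the 3 of the second library series, LP+/+ replicate 1 among them, which was also the lowest liver for Ces1g, and Cyp2c37 (2421 in that liver, 2956 and 2931 in LPfl/+, 5831 to 7877 in the 5 livers of the first series) was ordered in the same way. Gstm3 was lower in LPfl/+ than in LP+/+ without overlap, by -0.87 with edgeR (adjusted p = 0.697) and -0.88 with DESeq2 (adjusted p = 0.0422). Both values are short of the fold-change cutoff, and with the library series as a covariate the edgeR value was -0.62. Cyp2b13 had 0.966, 279 and 255 normalized read counts in LP+/+, against 4.05 and 0 in LPfl/+ and 57.9, 111 and 19.3 in LP245/+, and Cyp2b10 was at most 3.03 in the second series and 12.2 to 41.4 in the first. Ces2a and Ces2c did not follow these genes, since Ces2a spanned the smallest fold of the 10 and Ces2c was highest in LP+/+ replicate 1. Ces2e came closer to them, with 5740 normalized read counts in LP+/+ replicate 1 and 5634 and 4830 in LPfl/+. In the first series it had 5670 in LP245/+ replicate 1 and 7244 to 8412 in the rest.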

How the data were processed

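The authors aligned 76-bp paired-end reads of stranded total RNA libraries to GRCm38 with STAR, counted them per GENCODE gene and deposited the raw counts of 49585 genes. The GENCODE release and the strand counted are not given in the sources used here, so that overlapping and antisense genes are uncertain. GENCODE M21 supplied symbols and positions (49326 of the 49585 identifiers matched).

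The test was the quasi-likelihood F test of edgeR 4.0.16 (TMM scaling, filterByExpr by genotype) in R 4.3.3, with all 8 livers in 1 fit and Benjamini-Hochberg adjustment over 16496 genes. Normalized read counts were obtained with the size factors of DESeq2 1.42.0. Alternatives were DESeq2's test, its size factors, no filter, at least 10 counts in every liver, the 2 genotypes alone, the replicate number or the library series as a term, dropping the fold-change cutoff, and each liver left out. The labels do not pair same-numbered livers, whose deviations correlated between -0.078 and 0.029, and no 2 libraries were duplicates (chi-square per gene of at least 17.9 over 28 pairs). The labels do not say that the samples come from separate animals, so p-values measure the spread between these samples.

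Genes named are the 10 carboxylesterases, listed genes past an unadjusted p of 0.05 (at most 4 per list and comparison), the 3 nearest genes on each side of the clusters and the 5 most like Ces1g. Cell type markers past that p are not named by this rule. Their lists are given as sums, with directions for the hepatocyte and the Kupffer cell and macrophage markers only. Members and lists were chosen with earlier results of these data known. Promoters were searched and aligned with Biopython 1.88 under Python 3.11.15, and figures drawn with matplotlib 3.10.9.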

Additional observations from a re-analysis of the deposited data

How the results depend on the processing

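In each of the 3 comparisons 0 of the 9 carboxylesterases tested passed the cutoff under every alternative, the DESeq2 test, DESeq2 size factors, no filter, at least 10 counts in every liver, 2 genotypes only, no fold-change cutoff, the replicate block (0, 0 and 0), the library series as a covariate and each liver left out (0 to 0). Few genes of any kind passed. Of all genes, the main edgeR fit called 0.00606%, 0% and 0%, and DESeq2 0.0530%, 0.0581% and 0.390%. Shares of all genes under the other alternatives are not given, so the constant 0 is no result particular to these genes. Ces1g, which chose the family, was not counted, and its value for LP245/+ compared with LPfl/+ with that covariate was -2.25, where the series are linked through the LP+/+ livers alone, 1 of them in the second series. The covariate also turned the sign in LP245/+ compared with LP+/+ for Ces1g (-0.44) and Ces3a (0.017), in LPfl/+ compared with LP+/+ for Ces1b (-0.24), Ces1c (0.088) and Ces1g (1.81), and in LP245/+ compared with LPfl/+ for Ces1c (-0.25), Ces1f (-0.15), Ces2c (0.57), Ces2e (-0.16) and Ces3a (0.011). The cause was not tested. The replicate block turned Ces1f to -0.083 in that last comparison and changed no call.

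With 1 liver left out, the sign turned for 14 of the 30 values, among them Ces1b for LP245/+ compared with LPfl/+, the largest of the 30. In LP245/+ compared with LP+/+ the range was -0.16 to 0.026 for Ces1c, -0.26 to 0.014 for Ces1f, -0.44 to 0.34 for Ces1g and -0.14 to 0.031 for Ces3a. In LPfl/+ compared with LP+/+ it was -0.75 to 0.51 for Ces1b, -0.18 to 0.23 for Ces1d, -0.38 to 0.10 for Ces1f, -0.69 to 0.082 for Ces1g, -0.26 to 0.11 for Ces2a and -0.48 to 0.15 for Ces2c. In LP245/+ compared with LPfl/+ it was -1.25 to 0.0048 for Ces1b, -0.37 to 0.044 for Ces1d, -0.21 to 0.27 for Ces1f and -0.029 to 0.33 for Ces2a. The lowest value of the 10 genes in any liver was 611 normalized read counts, so that none was near the floor of 3 counts.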
